A study of Mus musculus with 4 samples.

Results

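The cell cycle and mitosis genes described here are 44 genes chosen by symbol from a table of 23337 mouse genes, and all 44 had a row. They comprise 25 mitotic genes, 16 S phase genes and 3 D-type cyclins. RNA was sequenced from cardiac cushions, tissue of the outflow tract and of the atrioventricular canal from which the heart valves form, dissected from C57BL/6 embryos at embryonic day 14.5. One genotype was Nfatc1Cre;Brg1F/F (mutant), in which Cre made from Nfatc1, a gene of the endocardium, recombines floxed Brg1. This gene, listed as Smarca4, encodes a motor subunit of BAF (SWI/SNF) complexes, which move nucleosomes. The other genotype was wildtype, from the same litters. There were 2 mutant and 2 wildtype libraries, and the series describes them as paired. Cushions of all 4 libraries were isolated by the GFP of a Cre reporter, and how many embryos a library held is not given in the sources used here. P-values therefore rest on how far these libraries differ from each other, and some of that may be technical.

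A dividing cell passes from G1 through DNA synthesis (S phase) and G2 into mitosis. D-type cyclins with their kinases inactivate the RB protein in G1, which frees E2F factors to switch on genes of replication, and later the DREAM and MuvB complexes with FOXM1 switch on genes of mitosis. Transcripts of both waves are low in resting cells, so their level in a tissue is widely read as a sign of how many cells are cycling. In the cushions, endocardial cells become mesenchyme, and this mesenchyme divides while the valves grow. In bulk tissue such as this, fewer cells of a type and less RNA per cell cannot be told apart.

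The 2 waves differed in the letters of their promoters, which are shown because the 2 groups are described apart below. RefSeq promoters (GRCm38.p6, which is mm10, from 250 bases before to 50 after a start site) were found for 34 of the 44 genes. The CHR element bound by MuvB complexes, searched as TTTGAA on both strands, was in the promoters of 14 of 20 mitotic genes and 1 of 13 S phase genes, against 20.2% of 27025 genes in the promoter table. E2F sites, searched as TTTGGCGC, TTTCGCGC, TTTCCCGC and TTTGGCGG on both strands, were in 6 of 13 S phase genes and 1 of 20 mitotic genes, against 2.7% of all genes. The CCAAT box, searched as CCAAT on both strands, was in 17 of 20 mitotic and 8 of 13 S phase genes, against 41.1% of all genes. Matches of these motifs can overlap one another. A match describes letters only and is not a measured binding site. The 150 bases before the start site, 5′ to 3′ on the strand of the gene, are printed for 4 mitotic genes, for Mcm6, which has E2F letters, and for Rrm2, an S phase gene with none in this window. Capitals mark CHR, CCAAT and E2F letters.
Mki67: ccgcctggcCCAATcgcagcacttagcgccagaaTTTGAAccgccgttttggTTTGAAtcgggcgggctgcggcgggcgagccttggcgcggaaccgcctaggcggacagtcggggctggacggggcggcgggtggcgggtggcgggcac
Top2a: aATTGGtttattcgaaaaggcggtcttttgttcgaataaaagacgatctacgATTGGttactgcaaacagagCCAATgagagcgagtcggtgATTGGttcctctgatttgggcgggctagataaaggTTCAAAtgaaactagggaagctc
Ube2c: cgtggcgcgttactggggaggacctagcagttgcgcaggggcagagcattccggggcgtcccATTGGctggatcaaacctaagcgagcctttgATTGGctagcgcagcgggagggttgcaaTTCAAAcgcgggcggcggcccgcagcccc
Cdc20: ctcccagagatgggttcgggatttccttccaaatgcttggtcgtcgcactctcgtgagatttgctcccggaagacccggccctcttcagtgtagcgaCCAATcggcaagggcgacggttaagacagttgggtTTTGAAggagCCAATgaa
Mcm6: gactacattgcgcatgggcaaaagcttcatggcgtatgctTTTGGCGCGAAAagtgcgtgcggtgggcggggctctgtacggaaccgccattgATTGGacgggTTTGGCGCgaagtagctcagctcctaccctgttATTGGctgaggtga
Rrm2: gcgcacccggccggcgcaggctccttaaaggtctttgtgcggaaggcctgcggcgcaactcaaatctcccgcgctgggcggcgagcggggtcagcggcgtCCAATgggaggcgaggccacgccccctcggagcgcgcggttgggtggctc
These lie at chr7:135716380-135716529 (minus strand), chr11:99024190-99024339 (minus), chr2:164769779-164769928 (plus), chr4:118437344-118437493 (minus), chr1:128359706-128359855 (minus) and chr12:24708104-24708253 (plus). In Mki67 the CHR letters begin 116 and 98 bases before the start site, in Top2a 23, in Ube2c 29 and in Cdc20 18. Another Top2a match begins 179 bases before the start site, outside the bases printed. In Mcm6 the E2F letters begin 110, 106 and 47 bases before it, the first pair overlapping.

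Reads in genes numbered 22426537 and 14104458 in the mutant libraries and 19218820 and 15790338 in the wildtype libraries, replicates 1 and 2. Smarca4 was at 282 and 239 CPM (counts scaled to library size) in mutants and 251 and 231 CPM in wildtypes, which shows no lower level in the mutants. Reads were counted over the whole gene, and the share of recombined cells was not measured here. This level therefore does not check the labels, and why it was not lower in mutants was not tested. Of marker lists for other cells, 4 of 8 leukocyte genes and 1 of 8 tested erythroid genes, Hemgn, were higher in mutants by edgeR's adjusted p, and 0 of 9 cardiomyocyte, 7 endocardial, 7 cushion mesenchyme, 3 hepatocyte, 4 epicardial, 4 smooth muscle and 2 neural genes tested passed. With the replicate block the calls were 5 leukocyte genes, 2 erythroid genes (Hemgn and Slc4a1) and 2 hepatocyte genes (Alb and Afp) higher in mutants, and 1 cardiomyocyte gene (Nppa) and 1 endocardial gene (Npr3) lower. DESeq2 called 5 leukocyte, 2 erythroid, 1 hepatocyte, 2 cardiomyocyte and 1 endocardial gene. Of all 14316 genes tested, 0.0629% passed by edgeR, 0.887% with the replicate block and 0.433% by DESeq2. The marker lists were chosen with earlier results of these data known, so their counts are not independent of these data. Npr3, a natriuretic peptide receptor of endocardium, measured 124 and 132 CPM in mutants, against 243 and 229 CPM in wildtypes. Summed CPM of 8 leukocyte markers was 164 and 167 in mutants and 79.2 and 72.5 in wildtypes. That of 9 erythroid markers was 851 and 654 in mutants and 585 and 594 in wildtypes, and that of 9 cardiomyocyte markers 54840 and 58390 in mutants and 69080 and 62580 in wildtypes. Endocardial markers (7 genes) summed to 1146 and 1184 CPM in mutants and 1220 and 1244 in wildtypes, and cushion mesenchyme markers (7 genes) to 5038 and 4526 in mutants and 5305 and 4912 in wildtypes. The sum of 4 hepatocyte markers was 8.98 and 16.8 CPM in mutants and 4.85 and 4.73 in wildtypes. Epicardial markers summed to 197 and 216 CPM in mutants and 196.5 and 211 in wildtypes, smooth muscle markers to 1155 and 1245 in mutants and 1095 and 1128 in wildtypes, and neural markers to 9.90 and 9.04 in mutants and 7.51 and 10.03 in wildtypes. Mutant replicate 2 had 8400 reads of 4 Y-linked genes and 189 of Xist, whereas wildtype replicate 2 had 72 and 36708, and the replicate 1 libraries had 0 Y-linked reads. Pair 2 thus differs in sex as well as genotype. The part of these other cells and of sex in the cell cycle values below was not tested.

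Cell cycle genes were plainly expressed in both genotypes, and 0 of the 44 differed between mutant and wildtype cushions by edgeR's quasi-likelihood test at an adjusted p of 0.05, where 0.0629% of 14316 genes did. At an unadjusted p under 0.05 the count was also 0 of 44, where 5.78% of all genes passed. DESeq2 called 0 of 44 where it called 0.433% of all genes, with 1, Ccnd2, at an unadjusted p under 0.05, against 4.04%. Limma-voom called 0 of 44 where it called 0.0489%, with 2 at an unadjusted p under 0.05, against 5.84%. All 44 passed the low count filter. The median log2 fold change, mutant over wildtype, was 0.07 over the 44 genes and -0.0027 over all genes tested, and 32 of the 44 lay above 0, against 49.5% of all genes. The smallest adjusted p was 0.870, for Ccnd2. With the replicate number as a block 127 of all genes (0.887%) passed, against 9 without it, and again 0 of the 44. In the authors' deposited table all 44 had a row and the smallest unadjusted p among them was 0.0605, for Foxm1.

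For most of these genes edgeR's 95% interval was narrow. These intervals rest on 2 libraries a group and on a spread that the model shares across genes. On simulated data false calls exceeded the nominal level. How often the intervals cover the true value was not measured there, and they may be too narrow. The 95% interval of the fold, mutant over wildtype, included 1 for all 44 genes. It lay wholly within a 1.5-fold change in either direction for 36 of 44 genes, which were 20 of 25 mitotic genes, 14 of 16 S phase genes and 2 of 3 D-type cyclins. It lay within a 2-fold change for 43 of 44, all but E2f1, whose upper bound was 2.04-fold. The median standard error was 0.156 on the log2 scale for the 44 genes and 0.184 for all genes.

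**Figure D1:**
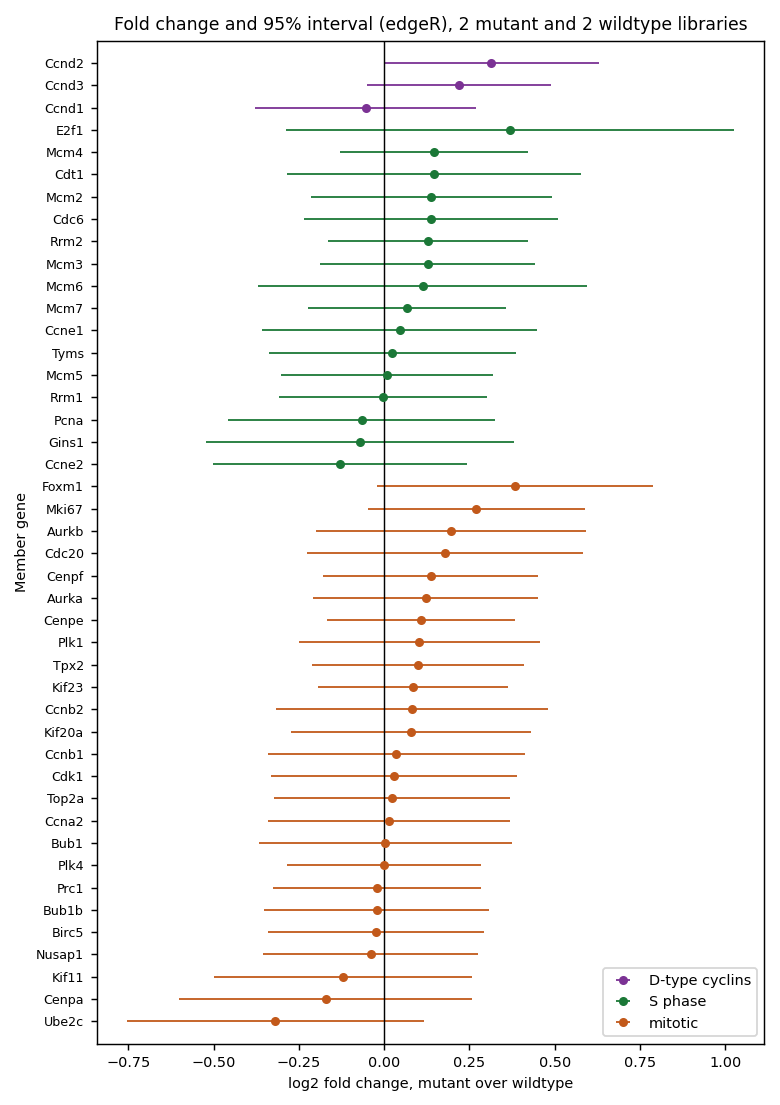
Fitted log2 fold change, mutant over wildtype, for each of the 44 genes (points) with its 95% interval (bars) from edgeR on 2 mutant and 2 wildtype libraries. Every interval reaches 0, and that of E2f1 is the widest.

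Summed over each group, the D-type cyclins reached 687.5 and 611 CPM in mutants, against 541 and 562 CPM in wildtypes. Both mutant libraries lay above both wildtype libraries, an order that 17% of all single genes showed. Ccnd2 held most of each sum, at 456 and 390 CPM in mutants and 320 and 360 CPM in wildtypes. Ccnd3 had the same order, and Ccnd1 overlapped between genotypes. The S phase genes summed to 1488 and 1500 CPM in mutants and to 1552 and 1336 CPM in wildtypes, so the wildtype libraries lay on either side of the mutants. The mitotic genes summed to 5700 and 6559 CPM in mutants and to 5839 and 5606 CPM in wildtypes. Here mutant replicate 2 stood above the other libraries, which lay close together. Without Mki67 and Top2a the sums were 3032 and 3663 CPM in mutants and 3314 and 3212 CPM in wildtypes. Mutant replicate 1 was then lowest and mutant replicate 2 highest. The 44 genes took 0.788% and 0.867% of scaled reads in mutants and 0.793% and 0.751% in wildtypes.

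**Figure D2:**
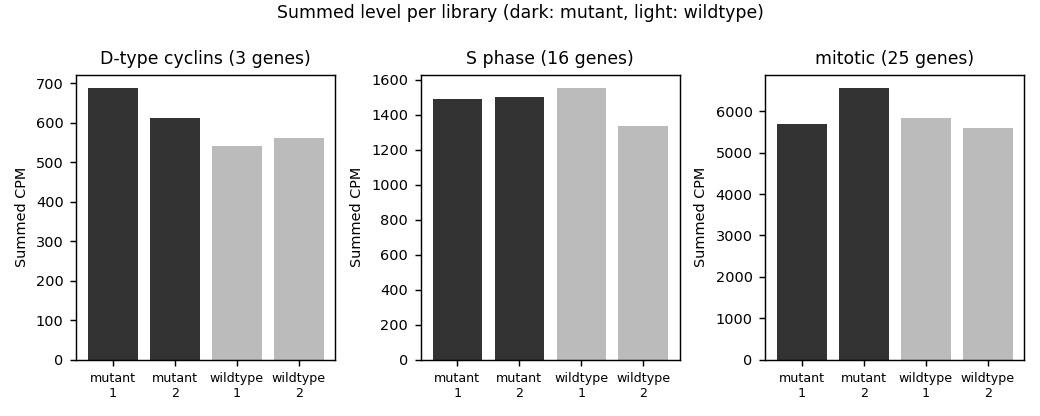
Summed CPM of the 3 D-type cyclins, 16 S phase genes and 25 mitotic genes in each library, mutants dark and wildtypes light, with axes from 0. Mutant replicate 2 has the highest mitotic sum at 6559 CPM, and both mutants have higher D-type cyclin sums than both wildtypes. Ccnd2 makes up most of each D-type cyclin sum.

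D-type cyclins couple growth signals to the G1 kinases. Ccnd2 (chromosome 6, 127125162 to 127152193, mm10) had the highest level per length of the 3, at a mean of 40.5 RPKM (CPM per kilobase of exon), followed by Ccnd1 at 20.5 and Ccnd3 at 13.97 RPKM. The lengths join the exons of all annotated transcripts of a gene. By mean CPM, Ccnd3 at 122.6 stood above Ccnd1 at 96.4. Ccnd2 measured 456 and 390 CPM in mutants, against 320 and 360 CPM in wildtypes. The genotypes did not overlap, and mutant replicate 1 stood highest. Its fold was 1.24 (log2 0.31 ± 0.14 SE, edgeR adjusted p = 0.870), with a 95% interval of 0.999 to 1.55. Ccnd3 measured 134 and 130 CPM in mutants, against 113 and 114 CPM in wildtypes. Its libraries within a genotype lay close together and the genotypes did not overlap, with a fold of 1.16 (interval 0.965 to 1.40). Ccnd1, the D-type cyclin most tied to mitogen signals, measured 98.0 and 91.2 CPM in mutants and 108 and 88.0 CPM in wildtypes, which overlapped. Its fold was 0.963.

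S phase genes had a median log2 fold change of 0.09 over 16 genes, 12 of them above 0, and 0 of 16 passed by edgeR, adjusted or not. Levels ranged from 2.23 RPKM for E2f1 to 72.8 RPKM for Pcna, with a median of 18.3. E2f1, a transcription factor that opens S phase, measured 9.46 and 6.28 CPM in mutants, against 4.85 and 7.51 CPM in wildtypes. Mutant replicate 1 was highest and wildtype replicate 1 lowest, with replicate 2 of each genotype between them. The fold of 1.29 thus had a wide interval, 0.819 to 2.04. It rests on 89 to 215 reads a library, and with a library left out its log2 fold change ranged from 0.030, without mutant replicate 1, to 0.71, without wildtype replicate 2.

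The 6 subunits of the MCM2-7 helicase, which opens DNA at replication origins, had log2 fold changes between 0.0091 and 0.15. Mcm4 measured 138 and 131 CPM in mutants, against 118 and 125 CPM in wildtypes. The genotypes did not overlap, and the fold was 1.11 (interval 0.915 to 1.34). Mcm6 (chromosome 1, 128331590 to 128359664) measured 192 and 133 CPM in mutants, against 178 and 122 CPM in wildtypes. Both replicate 1 libraries stood well above both replicate 2 libraries, whatever the genotype. Mcm3 measured 114 and 104 CPM in mutants and 109 and 90.8 CPM in wildtypes. Mcm2 measured 99.1 and 83.8 CPM in mutants and 92.5 and 73.8 CPM in wildtypes. These subunits showed the same order of replicates, with overlapping genotypes and folds of 1.09 for Mcm3 and 1.10 for Mcm2. Over the 16 S phase genes, replicate 1 lay above replicate 2 without overlap in 6 (Mcm2, Mcm3, Mcm6, Cdc6, Cdt1 and Tyms), against 15.4% of all genes. Cdc6 and Cdt1 load the helicase, and Tyms makes thymidylate.

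Of the genes of nucleotide supply and of the replication fork, Rrm2 did not overlap between genotypes and Pcna did. Both mutants lay above both wildtypes in 17% of all genes. Pcna, the sliding clamp of DNA polymerases (chromosome 2, 132249162 to 132253314), measured 145 and 197 CPM in mutants, against 197 and 160 CPM in wildtypes. Mutant replicate 1 was lowest, and mutant replicate 2 and wildtype replicate 1 were alike. Its log2 difference, mutant minus wildtype, was -0.45 in pair 1 and 0.30 in pair 2. Rrm2, the regulated subunit of ribonucleotide reductase, measured 83.3 and 91.7 CPM in mutants, against 78.3 and 81.5 CPM in wildtypes. The genotypes did not overlap and the fold was 1.09 (interval 0.892 to 1.34, edgeR adjusted p = 0.979). Its partner subunit Rrm1 had a fold of 0.998. The E-type cyclins, which start S phase with CDK2, had folds of 1.03 for Ccne1 and 0.915 for Ccne2, and Gins1, of the replicative helicase, 0.952.

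Mitotic genes had a median log2 fold change of 0.04 over 25 genes, 18 of them above 0, and 0 of 25 passed by edgeR, adjusted or not. Mki67, which encodes the Ki-67 protein that coats mitotic chromosomes (chromosome 7, 135689784 to 135716361), had the highest level of the 44 genes at 162 RPKM. It measured 1777 and 1789 CPM in mutants, against 1523 and 1433 CPM in wildtypes. The genotypes did not overlap, and the libraries within each lay close together. Its fold was 1.21 (log2 0.27 ± 0.14, edgeR adjusted p = 0.924), with an interval of 0.967 to 1.51. Top2a, the topoisomerase that untangles sister DNA, measured 890 and 1107 CPM in mutants, against 1003 and 961 CPM in wildtypes. Mutant libraries lay on either side of the wildtypes, and the fold was 1.02 (interval 0.800 to 1.29). Ccna2, cyclin A of S phase and G2, behaved likewise, with 224 and 302 CPM in mutants and 266 and 256 CPM in wildtypes.

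Foxm1, the transcription factor that drives mitotic genes (chromosome 6, 128362967 to 128376146), measured 46.4 and 34.5 CPM in mutants, against 30.6 and 31.6 CPM in wildtypes. The genotypes did not overlap, but mutant replicate 1 stood far above mutant replicate 2. Its fold of 1.31 was the highest of the 44 (log2 0.38 ± 0.18, edgeR adjusted p = 0.891), with an interval of 0.986 to 1.73. Without mutant replicate 2 its log2 fold change was 0.58 and its edgeR adjusted p 0.0490, in a fit that called 3% of all genes. Without mutant replicate 1 its log2 fold change was 0.15. Ube2c, the ubiquitin-conjugating enzyme of the anaphase-promoting complex (APC/C), measured 59.2 and 81.4 CPM in mutants, against 100.1 and 74.9 CPM in wildtypes. Replicate 1 held both the lowest value, in the mutant, and the highest, in the wildtype. Its fold of 0.802 was the lowest of the 44 (interval 0.593 to 1.08), and with a library left out its log2 fold change ranged from -0.56, without mutant replicate 2, to -0.089, without wildtype replicate 1. Aurkb, the kinase of the chromosomal passenger complex, measured 26.6 and 33.8 CPM in mutants, against 25.3 and 27.3 CPM in wildtypes. Cdc20, which activates the APC/C at anaphase, measured 40.4 and 55.0 CPM in mutants, against 40.2 and 43.99 CPM in wildtypes. In both genes only mutant replicate 2 stood apart, and folds were 1.15 and 1.13.

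The remaining mitotic genes ranged in fold from 0.888 for the centromeric histone Cenpa to 1.10 for the kinetochore protein Cenpf. Spindle motors and bundlers were at 0.920 for Kif11, 1.06 for Kif20a, 1.06 for Kif23 and 0.985 for Prc1, and the spindle assembly genes Tpx2 and Nusap1 at 1.07 and 0.973. The cyclin-dependent kinase of mitosis Cdk1 was at 1.02, with its cyclins Ccnb1 at 1.03 and Ccnb2 at 1.06. Checkpoint and kinetochore genes were at 1.00 for Bub1, 0.985 for Bub1b and 1.08 for Cenpe. The mitotic kinases Aurka and Plk1 were at 1.09 and 1.07, the centriole kinase Plk4 at 1.00 and Birc5, survivin, at 0.983. Of all 44 genes, both mutant libraries lay above both wildtype libraries in 8 (Ccnd2, Ccnd3, Mcm4, Rrm2, Foxm1, Mki67, Cenpe and Aurka), against 17% of all genes, and below them in 0, against 16.3%. The first share is near that of all genes.

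**Figure D3:**
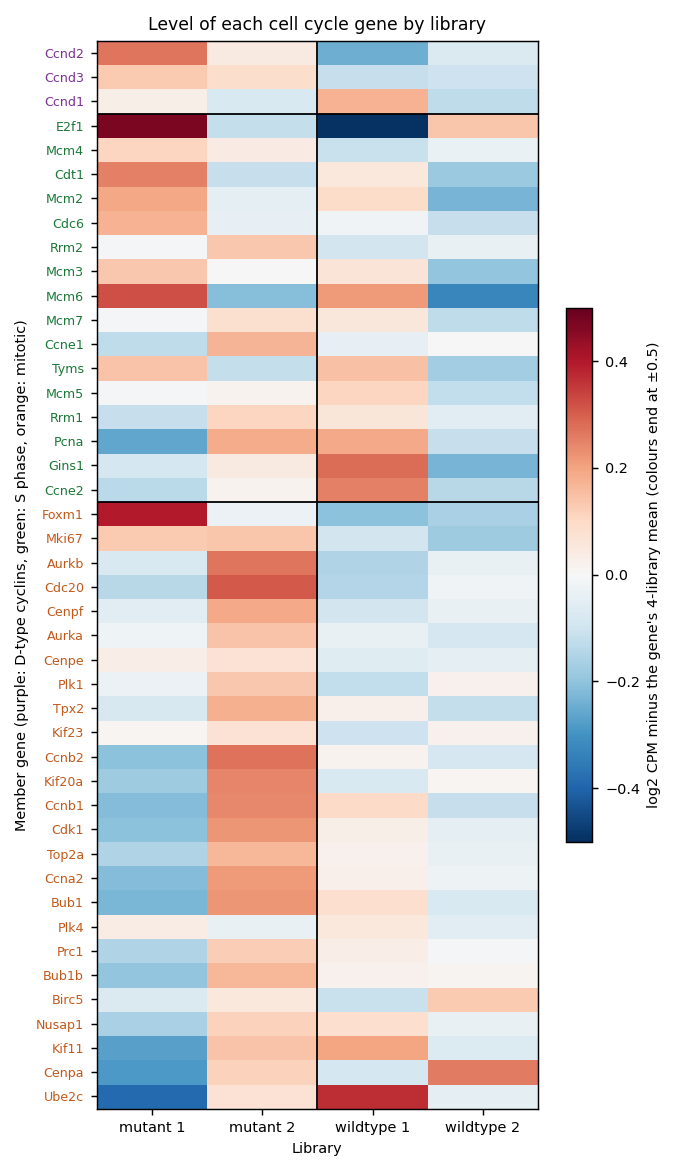
Log2 CPM of each gene in each library minus that gene's mean over the 4 libraries, red above and blue below, mutants on the left. Mitotic genes are mostly red in mutant replicate 2 and blue in mutant replicate 1, while Mki67 is red in both mutants.

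Most mitotic genes had the same library at the top. Mutant replicate 2 was the highest library for 19 of 25 mitotic genes, against 22.3% of all genes, and mutant replicate 1 the lowest for 13 of 25, against 30.8%. Mutant replicate 2 was the lowest for 0 of 25, against 22.5% of all genes. This library also had the fewest reads in genes (14104458) and 8400 Y-linked reads, against at most 72 in the other libraries, and the part of either in this order was not tested. Of the genes whose promoters are shown above, Mki67, Top2a, Cdc20 and the S phase gene Rrm2 were highest in mutant replicate 2. Ube2c was highest in wildtype replicate 1 and Mcm6 in mutant replicate 1. Of S phase genes, mutant replicate 1 was highest for 7 of 16, against 29.6% of all genes, and wildtype replicate 2 lowest for 10 of 16, against 20.3%. The ratio of summed mitotic to summed S phase CPM was 3.83 and 4.37 in mutants and 3.76 and 4.20 in wildtypes, so it was higher in replicate 2 of both genotypes.

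Within pairs, the direction of the mitotic genes differed. Mutant minus wildtype was above 0 for 10 of 25 mitotic genes in pair 1, with a median log2 difference of -0.10, and for 23 of 25 in pair 2, with a median of 0.21. Over all genes these medians were -0.0021 and 0.0029. The median fold change of mitotic genes was accordingly 0.18 without mutant replicate 1 and -0.14 without mutant replicate 2. S phase genes were above 0 for 8 of 16 in pair 1 (median 0.032) and 15 of 16 in pair 2 (median 0.16), and their median was -0.021 without wildtype replicate 2. The D-type cyclins had medians of 0.24 and 0.11. Over the 44 genes the pairs had opposite signs for 25, against 51.6% of all genes, and both were above 0 for 18, against 24.3%, and both below 0 for 1, Cenpa, against 24.1%. In pair 1, 3 genes differed by over 1.5-fold (E2f1, Foxm1 and Ube2c), and in pair 2 it was 0, against 14.6% and 10.2% of all genes. Pair 2 is the pair that differs in sex, and the difference between pairs was not tested.

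**Figure D4:**
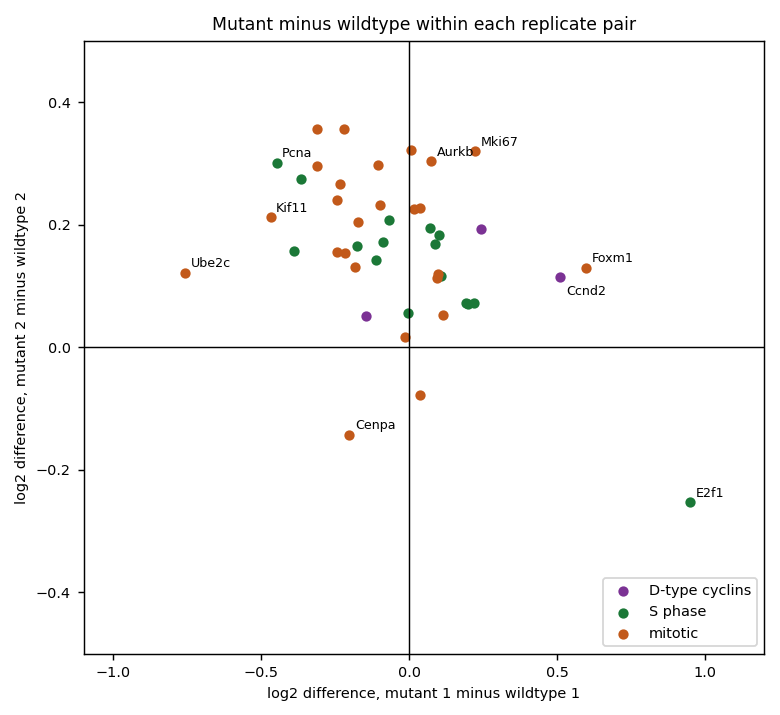
Log2 difference, mutant minus wildtype, of each gene in pair 1 (x axis) and pair 2 (y axis). Of 25 mitotic genes, 23 lie above 0 on the y axis and 10 on the x axis, and E2f1 lies far to the right at 0.95 with -0.25 in pair 2.

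Cell cycle genes outside the 44 also gave no call. Of 56 other mitotic genes 0 passed by edgeR. Its unadjusted p was under 0.05 for 2, Kifc1 and Espl1, both higher, against 5.78% of all genes. DESeq2 called 0, with 1 at an unadjusted p under 0.05, against 4.04% of all genes. The median log2 fold change of the 56 was 0.05, with 16 of 56 above 0 in pair 1 and 50 of 56 in pair 2. Mutant replicate 2 was the highest library for 33 of 56, against 22.3% of all genes. Kifc1, a minus-end kinesin, measured 20.2 and 18.1 CPM in mutants, against 12.4 and 14.8 CPM in wildtypes (log2 0.50 ± 0.18, edgeR adjusted p = 0.700). Espl1, the protease separase, measured 36.8 and 34.2 CPM in mutants, against 26.9 and 28.1 CPM in wildtypes. Both genes had higher levels in both mutants than in both wildtypes, an order found in 12 of the 56 and in 17% of all genes. The condensin genes Smc4 and Smc2, which had the most reads of this list, were at 0.03 and 0.06 (log2).

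Of the 49 other replication genes with a row, 0 passed by edgeR and DESeq2 called 0. By edgeR 0 had an unadjusted p under 0.05, against 5.78% of all genes. The median log2 fold change of the 49 was 0.02, with 23 of 49 above 0 in pair 1 and 41 of 49 in pair 2. Pole, a replicative polymerase, was at 0.27 ± 0.13, the fork protein Timeless at 0.31 ± 0.16 and the origin recognition subunit Orc4 at -0.30 ± 0.15 (log2 ± SE). Dnmt1, the maintenance methyltransferase, and Atad2, of highest level, were at 0.17 and 0.05.

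CDK inhibitors, RB, E2F and DREAM genes, G1 and S kinases and APC/C subunits also gave 0 calls by edgeR. Among 6 tested CDK inhibitors, 1 passed at an unadjusted p under 0.05, Cdkn1c (p57), an imprinted inhibitor of the G1 kinases. It measured 118 and 184 CPM in mutants, against 208 and 221 CPM in wildtypes. Both mutants lay below both wildtypes, and mutant replicate 1 stood lowest by far. Its log2 fold change was -0.50 ± 0.19, and edgeR's adjusted p was 0.750, while the fit with a replicate block gave 0.260. Cdkn1a (p21) was at 0.43 ± 0.25 and Cdkn1b (p27) at -0.19 ± 0.17. Of 18 RB, E2F and DREAM genes, the activator E2f2 was at 0.51 ± 0.22 (unadjusted p = 0.0443 by edgeR, adjusted 0.845), E2f7 at 0.34 ± 0.19, E2f5 at -0.28 ± 0.16, Rbbp4 at 0.05 and Rbl1 at -0.01. Of 6 G1 and S kinase genes, Cdk7 was at -0.14, Cdc25a at 0.11 and Cdk4 at 0.08. Of 13 APC/C subunits, Anapc10 was at -0.39 ± 0.16 (unadjusted p = 0.0345 by edgeR, adjusted 0.793), Anapc2 at 0.42 ± 0.20, Anapc11 at 0.33 ± 0.18, Anapc1 at 0.03 and Cdc27 at 0.04. The list medians were 0.09, 0.07, 0.03 and 0.03 in that order of lists. DESeq2 called 0 in these lists, with 1 inhibitor and 2 APC/C subunits at an unadjusted p under 0.05. Of all genes, 5.78% had an unadjusted p under 0.05 by edgeR and 4.04% by DESeq2.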

How the data were processed

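The authors deposited raw counts per gene symbol for 4 libraries of ribosomal RNA-depleted total RNA. The submitters' processing notes name edgeR, HTSeq, SAMtools, TopHat2 and Bowtie2, and the build mm10. No source used here states their versions, the annotation or the strand setting, so overlapping genes may share reads. A second table the authors deposited holds edgeR p-values, a fold ratio, log2 CPM, a likelihood ratio score and log2 fold changes. Set against the counts, those fold changes run wildtype over mutant, and only its p-values are quoted.

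Reads outside genes (51.8% to 54.4%), aligned to several places (16.1% to 17.0%) or ambiguous (0.187% to 0.210%) were left out. The genotype test was the quasi-likelihood F test of edgeR 4.0.16, R 4.3.3 (filterByExpr, TMM, Benjamini-Hochberg over 14316 genes, threshold 0.05) and checked on simulated data, where the share of false calls exceeded the nominal level. Each standard error is the log2 fold change divided by the root of F. RPKM uses exon lengths of GENCODE M21 on mm10. Pair differences use log2 CPM with a prior count of 2. At these depths 3 reads are 0.134 to 0.213 CPM, covering counting error only.

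The series text pairs the libraries as littermates; deviations of same-numbered libraries correlated at 0.144 across genes. The replicate block was an alternative, with other scalings and filters, DESeq2 1.42.0, limma-voom 3.58.1 and each library left out. The members and lists were chosen with earlier results of these data known. Given in full are, in each group of members, the 5 of smallest p and the 3 of highest RPKM; of other lists, up to 3 of smallest p and 2 of highest CPM.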

Additional observations from a re-analysis of the deposited data

How the results depend on the processing

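Over 12 alternative settings 0 S phase genes and 0 D-type cyclins passed, and the single mitotic call was Foxm1 without mutant replicate 2, so the count of the 44 genes, and of the 25 mitotic genes, ranged from 0 to 1 with a library left out. The count of 9 among all genes became 127 with the replicate block, 236 without a low count filter and 62 with DESeq2, and 3 to 443 with a library left out, where a lone library is assumed to vary like the other group. The cause was not tested. The replicate block changed no call among the 44. With a library left out the median log2 fold change of S phase genes ranged from -0.021 to 0.15, that of mitotic genes from -0.14 to 0.18 and that of D-type cyclins from 0.20 to 0.24. Single genes near 0 changed sign. With the block Bub1 was at -0.010 and Ccna2 at -0.0012; with limma-voom -0.018 and -0.0043; without a filter Bub1 was at -0.0030 and Plk4 at -0.0048; Plk4 was at -0.00082 with RLE scaling and -0.00079 with DESeq2. Rrm1 was at 0.016 with upper-quartile scaling, 0.024 with library sizes only and 0.0046 with a filter of 5 CPM, and with library sizes only Bub1b was at 0.0041 and Prc1 at 0.0052. Ranges of log2 fold changes that cross 0 with a library left out were Birc5 -0.14 to 0.10, Bub1 -0.23 to 0.21, Bub1b -0.21 to 0.15, Ccna2 -0.21 to 0.21, Ccnb1 -0.20 to 0.25, Ccnb2 -0.17 to 0.30, Ccnd1 -0.20 to 0.11, Ccne1 -0.10 to 0.19, Ccne2 -0.31 to 0.085, Cdc20 -0.053 to 0.39, Cdk1 -0.19 to 0.23, Cdt1 -0.057 to 0.32, Cenpa -0.38 to 0.019, Gins1 -0.30 to 0.21, Kif11 -0.34 to 0.071, Kif20a -0.14 to 0.27, Mcm2 -0.018 to 0.31, Mcm5 -0.10 to 0.13, Mcm6 -0.18 to 0.41, Mcm7 -0.024 to 0.17, Nusap1 -0.18 to 0.092, Pcna -0.30 to 0.14, Plk4 -0.053 to 0.057, Prc1 -0.16 to 0.11, Rrm1 -0.11 to 0.10, Top2a -0.14 to 0.17, Tpx2 -0.029 to 0.22 and Tyms -0.13 to 0.20. The other 16 of the 44 genes kept their sign in all 12 settings. With 2 libraries a group, precision is at best that of the 95% intervals given above.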
